A study of Mus musculus with 16 samples.

Results

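White adipose tissue of mice of the AEA001 line was compared with that of wild-type mice, gene by gene, on the 8 white adipose arrays among the 16 arrays of the series. The 8 arrays were those whose sample titles name white adipose tissue, with 4 AEA001 mutants against 4 wild types. All animals were male, of the inbred strain C3HeB/FeJ and 17 weeks old. The mutants carried the AEA001 allele, labelled as a mutant of Ednra, in a line derived with the chemical mutagen N-ethyl-N-nitrosourea (ENU) that the submitters present as an osteoporosis model. The labels do not give the zygosity, the fat depot, the body weight or the hour of dissection. The other 8 arrays measured femur with the same labels for the animals. The level of Ednra itself is not analysed here.

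Ednra encodes endothelin receptor type A, a G protein-coupled receptor through which endothelin peptides contract vascular smooth muscle. White fat stores triglyceride in large lipid droplets and releases hormones such as leptin and adiponectin. Leptin output follows the size of the fat store, and in an expanding depot the adipocytes are joined by lipid-laden macrophages and by newly made collagen. Fat also holds stromal precursors, vessels and, in visceral depots, a mesothelial cover, so each array averaged several cell types, and a difference in cell number cannot be told apart from a difference in RNA per cell.

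Each value is an Illumina probe intensity normalized by the authors. Intensities under 16 were set to 16 before taking log2, and probes above 16 on at least 4 of the 8 arrays were tested, which left 14342 of 25697 probes and 9878 named genes. Each gene was represented by its brightest kept probe. Values of 4 arrays are listed in the order of replicates 1 to 4, and a difference is the mutant mean minus the wild-type mean on the log2 scale ± its standard error from limma, with 4 arrays in each group. Per-array medians were 25.2 to 25.3 and the arrays correlated with each other at 0.945 to 0.992.

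The fat markers were present on all 8 arrays. Adipoq, which encodes adiponectin, was at 17281, 17415, 18262 and 15666 in the wild types and 19512, 19512, 22610.4 and 20938 in the mutants. The lipid droplet protein genes Plin1 and Cidec were at 1765 to 2579 and at 22824 to 24459. Fabp4, the adipocyte fatty acid binding protein gene, had a dim probe at 34.96 to 57.2.

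The white adipose array of mutant 2 also carried transcripts of femur, marrow and muscle. Bglap, the osteocalcin gene of bone, was at 242 on that array and below 0 on the other 7. Ckm, the muscle creatine kinase gene, was at 253 there and at most 8.17 elsewhere, and the granulocyte gene Ngp was at 825 against at most 19.8. Among 71 probes that averaged over 1000 in femur but stayed at or under 16 on the 7 remaining fat arrays, 61 exceeded 16 on mutant 2, at a median of 1.66% of the femur signal. Muscle and granulocyte genes had smaller values above background on mutants 3 and 4, such as Mylpf, a fast muscle myosin light chain gene, at 51.7 and 25.9 and Camp at 31.6 and 47.1. Muscle genes also had such values on wild types, with Mylpf at 21.6 on wild type 3 and Actn3 at 26.4 and 37.3 on wild types 3 and 4.

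**Figure D1:**
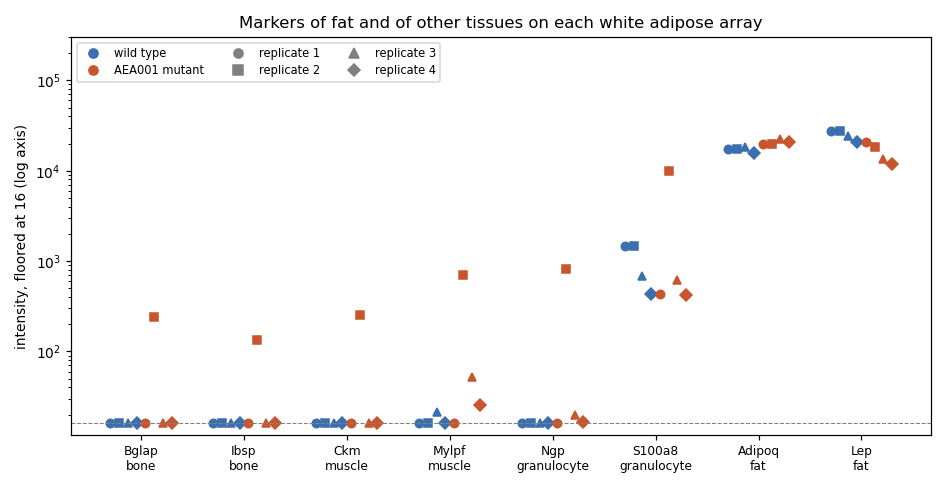
Intensity (log axis, values under 16 drawn at 16, dashed line) of markers of bone, muscle, granulocytes and fat on each of the 8 white adipose arrays, coloured by genotype with 1 symbol per replicate number. Mutant 2 stands above the other 7 arrays for Bglap, Ibsp, Ckm, Mylpf, Ngp and S100a8, and all 8 arrays are bright for Adipoq and Lep.

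Wild types 1 and 2 stood apart from the other 6 arrays. On the leading principal component, which held 55.8% of the variance, wild types 1 and 2 were at -58.0 and -34.0, wild types 3 and 4 at 0.601 and 10.7, while the 4 mutants ranged from 7.56 to 34.7. The animal identifiers of wild types 1 and 2 share all but the last digit with each other, as do those of wild types 3 and 4 and mutants 2, 3 and 4, while that of mutant 1 stands apart from both sets. Wild type 3 and mutant 4 are labelled with 1 shared identifier. What the digits stand for is not given, and their part in the results was not tested. Values are therefore also given without wild types 1 and 2, which leaves 2 wild types against 4 mutants.

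With all 8 arrays, 2 of 14342 probes (0.0139%) passed a limma adjusted p of 0.05, both lower in the mutants, and 0 of 9878 genes passed by their brightest probe. At an unadjusted limma p under 0.05, 1313 genes were higher in the mutants (13.3% of genes) and 1210 lower (12.2%). The groups did not overlap for 843 genes that were higher (8.53%) and 728 that were lower (7.37%). The median difference over all genes was 0.03, with 54.7% of genes on the higher side and 45.3% on the lower. Without wild types 1 and 2, 0 probes passed and the unadjusted counts were 433 higher (4.38%) and 430 lower (4.35%). The list counts below are to be read against the share of all genes on the same arrays. When limma was fitted to fat and femur arrays together, so that both tissues gave the spread, 1181 fat probes (8.23%) passed, 523 higher and 658 lower. That count was 104 to 2314 with single fat arrays left out and 17 without wild types 1 and 2.

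Of the 2 called probes, 1 belonged to Cert1, which encodes the protein that carries ceramide from the endoplasmic reticulum to the Golgi for sphingomyelin synthesis. Its intensity was 38.5, 33.5, 30.0 and 29.3 in the wild types and 14.6, 14.8, 10.3 and -2.26 in the mutants. Every mutant was under the floor of 16 and every wild type above it, with a fitted difference of -1.03 ± 0.10 (limma adjusted p = 0.0347). The floor limits the size of that difference and removes all spread among the mutants, on which the p depends. With a floor of 8, 0 probes were called. The brighter probes of Cert1 were lower by less, at -0.37 ± 0.14 (limma adjusted p = 0.164) and -0.35 ± 0.16 (limma adjusted p = 0.197). The other called probe has no gene name in the annotation. It was at 39.6, 29.9, 37.5 and 32.7 in the wild types and 14.8, 10.8, 9.34 and 15.7 in the mutants, a difference of -1.12 ± 0.10 (limma adjusted p = 0.0347). Here too every mutant was under the floor, and the probe was kept through its wild types, so its fitted difference and p are set by the floor as well. Neither probe passed when any of wild types 3 and 4 or the 4 mutants was left out.

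Next in order of p came 15 genes on the higher side and 15 on the lower, none past the threshold, with limma adjusted p from 0.108 to 0.11. All 30 had groups that did not overlap (exact permutation p = 0.0286, the smallest that 70 relabelings can give), as the ranking by p favours. Without wild types 1 and 2 they kept 73.8% to 103% of their difference on the higher side and 79.6% to 117% on the lower, with a smallest limma adjusted p of 0.451. In the fit of all 16 arrays, 13 of the 15 higher genes and 14 of the 15 lower ones passed, against 8.23% of all fat probes. That fit holds the same fat arrays by which the 30 were ranked, so their passing is no independent support. Without wild types 1 and 2 it called 17 fat probes in all.

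The smallest p on the higher side was that of Depp1, a fasting-induced target of FOXO transcription factors, at 700.1, 585, 759 and 797 in the wild types and 1287, 1377, 1283 and 1514 in the mutants. Every mutant was above every wild type, by 0.95 ± 0.12 on the log2 scale. Fam13a, a gene at human loci for body fat distribution, had the largest difference of the 15, 1.79 ± 0.29 over all 8 arrays and 1.41 without wild types 1 and 2. Its intensity was 64.2, 80.0, 114 and 127 in the wild types and 283, 208, 451 and 397 in the mutants, so the wild types were below the mutants on every array. Cirbp, which encodes a cold-inducible RNA-binding protein, was at 203, 234, 287 and 227 in the wild types and 357, 353, 417 and 407 in the mutants, a difference of 0.70 ± 0.12. Coq8b, whose product supports coenzyme Q synthesis, differed by 0.65 ± 0.12, the mitochondrial seryl-tRNA synthetase gene Sars2 by 0.58 ± 0.10 and the translation initiation factor gene Eif3k by 0.63 ± 0.09. Tmem150a differed by 0.70 ± 0.09, Abi3 by 0.63 ± 0.09, Tspyl2 by 0.67 ± 0.10, Foxj2 by 0.51 ± 0.08, Sdcbp2 by 0.76 ± 0.12, Tprn by 0.54 ± 0.09 and Rufy3 by 0.70 ± 0.12. Olfr703 and Sag, an olfactory receptor and a retinal arrestin gene, were dim, at 9.94 to 32.1 and 7.71 to 32.3. They differed by 0.67 ± 0.12 and 0.67 ± 0.12, and by 0.0008 and 0.0032 with a floor of 32. Both were above 16 on all mutants, but only on wild types 3 and 4 for Olfr703 and on wild type 4 for Sag. They were thus kept through the mutants, and the floor removed most of the wild-type spread on which their p depends.

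On the lower side, Mex3c, which encodes an RNA-binding ubiquitin ligase, was at 102, 95.3, 84.9 and 84.5 in the wild types and 43.6, 32.7, 40.2 and 20.5 in the mutants. The lowest wild type was well above the highest mutant, and the difference was -1.47 ± 0.22. Trp53inp2, a gene of autophagy, was at 3246, 3240.2, 2958 and 2732 in the wild types and 2136, 1922, 1999 and 1594 in the mutants, and Rbm28, a nucleolar RNA-binding protein gene, was the brightest of the 15 at 7671, 7821, 7480.5 and 6679 in the wild types and 5417, 4985, 4224 and 4051 in the mutants. Both sets of mutants lay below all wild types, with differences of -0.67 ± 0.11 and -0.67 ± 0.12. Secreted factors were among the 15. Bmp3, a member of the bone morphogenetic protein family that adipocyte precursors express, was at 866, 841, 745 and 698 in the wild types and 569.6, 494, 491 and 469.7 in the mutants, a difference of -0.64 ± 0.10. Angptl1, an angiopoietin-like gene, differed by -0.64 ± 0.11 and Bmp6 by -0.57 ± 0.10, the latter near the floor. Ccl8, a monocyte chemokine gene, was at 393, 330.5, 326 and 389 in the wild types and 221, 243, 216 and 178 in the mutants, and its difference of -0.75 ± 0.12 was -0.74 without wild types 1 and 2. Itga1, the collagen-binding integrin alpha subunit gene, differed by -0.54 ± 0.09, the Rac activator gene Tiam1 by -0.50 ± 0.08, Krit1 of endothelial junctions by -1.01 ± 0.17 and the diacylglycerol kinase gene Dgke by -0.79 ± 0.11. Ncapg2, Bod1l, Bend3 and Mrgprf differed by -0.84 ± 0.13, -0.99 ± 0.16, -0.60 ± 0.10 and -0.50 ± 0.09. The mutants lay at or near the floor for Dgke (6.99 to 18.6), Ncapg2 (11.8 to 22.1) and Bod1l (10.1 to 21.8). Their fitted differences and p are thus set in part by the floor. With a floor of 32 the differences were -0.0097, -0.048 and -0.23.

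**Figure D2:**
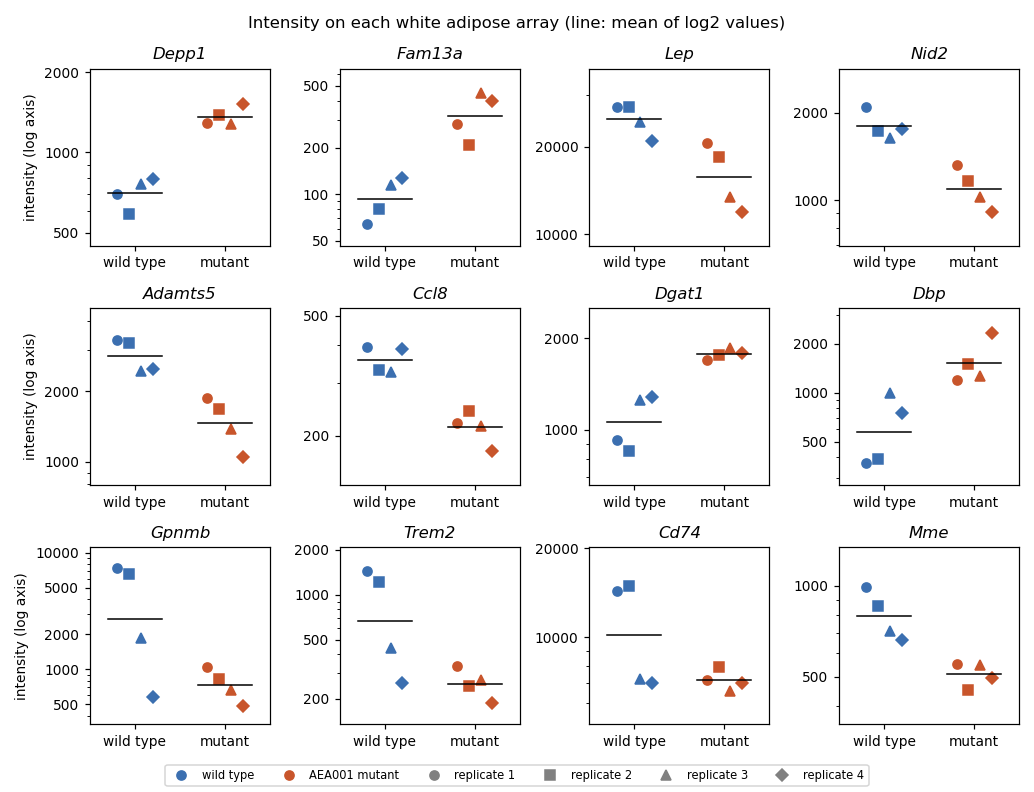
Intensity (log axis) of 12 genes on each white adipose array, wild types left and mutants right in each panel, with 1 symbol per replicate number and a line at the mean of the log2 values. The genotypes do not overlap for Depp1, Fam13a, Lep, Nid2, Adamts5, Ccl8, Dgat1, Dbp and Mme, whereas for Gpnmb, Trem2 and Cd74 wild type 4 lies within the range of the mutants.

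The adipocyte hormones differed in opposite directions. Lep, the leptin gene, was at 27335, 27335, 24258 and 20938 in the wild types and 20603, 18403, 13426 and 11919.6 in the mutants, so the lowest wild type was just above the highest mutant. The difference of -0.66 ± 0.19 (limma adjusted p = 0.112) was -0.52 without wild types 1 and 2. Adiponectin mRNA was higher in all 4 mutants by 0.27 ± 0.09 (limma adjusted p = 0.13), and 0.28 without those wild types. Retn, the resistin gene, was 0.60 ± 0.26 over all 8 arrays and 0.19 without wild types 1 and 2. Sfrp5, a secreted Wnt inhibitor of adipocytes, was at 526, 513, 329 and 282 in the wild types and 228, 295, 194 and 114 in the mutants, with mutant 2 above wild type 4. Of the 14 measured adipocyte hormone and secreted factor genes, 4 were higher and 5 lower at an unadjusted p under 0.05. The shares over all genes were 13.3% and 12.2%, and the list median was 0.01. Leaving out wild types 1 and 2 gave an unadjusted count of 1 higher and 0 lower.

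Markers of fat mass expansion were mostly on the lower side. Of 17 measured members, 13 were lower, with 6 lower and 2 higher at an unadjusted p under 0.05. Over all genes these shares were 45.3%, 12.2% and 13.3%. The list median was -0.29 over all 8 arrays and -0.20 without wild types 1 and 2, where again 13 were lower against 48.7% of all genes. The unadjusted count was then 1 lower and 0 higher. Npr3, the natriuretic peptide clearance receptor gene, was at 8813, 8480.1, 8919 and 7551 in the wild types and 7755, 7305, 5911 and 5528 in the mutants. The lowest wild type lay within the mutants, and the difference was -0.36 ± 0.13. Mest, an imprinted gene that follows fat expansion, was -0.57 ± 0.20 over all 8 arrays and -0.30 without wild types 1 and 2. Vldlr, a lipoprotein receptor gene, was -0.43 ± 0.13 over all 8 arrays and -0.27 without wild types 1 and 2. Mogat1, a monoacylglycerol acyltransferase gene, and the imprinted gene Peg3 were on the other side. Mogat1 was 0.70 ± 0.24 over all 8 arrays and 0.32 without wild types 1 and 2, and Peg3 0.93 ± 0.39 over all 8 arrays and 0.30 without wild types 1 and 2.

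Adipocyte identity genes lay on both sides. Of 22 measured, 12 were higher and the list median was 0.03. The brightest members were Plin4 at -0.01 ± 0.07, Car3 at 0.04 ± 0.08 and Cidec at 0.01 ± 0.07, and Lpl, the lipoprotein lipase gene of the hormone and secreted factor list, was as bright, at 0.01 ± 0.07. Such probes lie at the top of the intensity range, where the same normalized values recur on arrays of both genotypes, which limits the difference they can show. Adig, an adipocyte-specific gene tied to leptin output, was at 4504, 4622, 6585 and 6085 in the wild types and 7821, 7703, 9099 and 9232 in the mutants, a difference of 0.65 ± 0.15 (limma adjusted p = 0.112) that was 0.41 without wild types 1 and 2. Plin1 was 0.38 ± 0.10 over all 8 arrays and 0.29 without wild types 1 and 2, and the fatty acid transporter gene Cd36 0.54 ± 0.21 over all 8 arrays and 0.57 without wild types 1 and 2. Cebpb, a transcription factor gene of early adipogenesis, was at 5086, 4430.4, 3564 and 3330.2 in the wild types and 2618, 2743, 2369.9 and 2116 in the mutants, with all mutants below all wild types and a difference of -0.72 ± 0.15 (limma adjusted p = 0.112).

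Genes of fatty acid and triglyceride synthesis were on the higher side in part. Of 21 measured, 6 were higher and 1 lower at an unadjusted p under 0.05, against 13.3% and 12.2% of all genes. The median was 0.17, and 0.05 without wild types 1 and 2. The unadjusted count was then 3 higher and 0 lower. Dgat1, which makes triglyceride from diacylglycerol, was at 926, 854, 1257 and 1279 in the wild types and 1693, 1763, 1865 and 1797 in the mutants. All mutants exceeded all wild types, by 0.74 ± 0.14 (limma adjusted p = 0.111) over all 8 arrays and 0.49 without wild types 1 and 2. Me1, the malic enzyme gene that supplies NADPH, was 0.48 ± 0.11 over all 8 arrays and 0.56 without wild types 1 and 2. Acaca, the acetyl-CoA carboxylase gene, was 0.64 ± 0.20 over all 8 arrays and 0.33 without wild types 1 and 2, the citrate carrier gene Slc25a1 0.38 ± 0.10 over all 8 arrays and 0.27 without wild types 1 and 2, and the fatty acid synthase gene Fasn 0.26 ± 0.21 over all 8 arrays and 0.19 without wild types 1 and 2. Among genes of lipolysis and fatty acid oxidation, Pnpla2, which encodes the main triglyceride lipase, was 0.29 ± 0.11 over all 8 arrays and 0.14 without wild types 1 and 2. Etfb, an electron carrier gene of fatty acid oxidation, was at 8480.1, 8111, 8947 and 8714 in the wild types and 11305, 10710.5, 11560.3 and 10895 in the mutants, and Acadl, a long-chain acyl-CoA dehydrogenase gene, at 946, 663, 611 and 699.8 in the wild types and 447, 555, 563 and 517 in the mutants. The groups did not overlap for either gene, with differences of 0.38 ± 0.07 and -0.47 ± 0.15, though a dimmer probe of Acadl was at 0.17. The median of the 16 measured members was 0.07.

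Respiratory chain and ATP synthase genes were higher by small amounts. Of 53 measured, 46 were higher, and 16 were higher and 0 lower at an unadjusted p under 0.05. Over all genes these shares were 54.7%, 13.3% and 12.2%. The median was 0.17, against 0.03 over all genes. Without wild types 1 and 2 it was 0.09, with 42 higher where 51.3% of all genes were and 6 higher at an unadjusted p under 0.05. The mean log2 level of the list was 11.47, 11.44, 11.60 and 11.59 in the wild types and 11.64, 11.64, 11.75 and 11.80 in the mutants, so all 4 mutants were above all wild types. Atp5g1, a proton channel subunit gene, was at 1999, 2063, 2077 and 2236 in the wild types and 2499, 2725, 2531 and 2614 in the mutants, and Sdhb, of succinate dehydrogenase, at 1618, 1751, 1721 and 1854 in the wild types and 2149, 2047, 2251 and 2131 in the mutants. Each was higher in all mutants, by 0.31 ± 0.08 and 0.31 ± 0.08. The largest differences with groups apart were those of complex I subunit genes Ndufb10 at 0.58 ± 0.17 and Ndufs7 at 0.47 ± 0.13 and of the ATP synthase subunit gene Atp5e at 0.46 ± 0.13. They were 0.30, 0.25 and 0.43 without wild types 1 and 2, with Atp5e then the largest of the 3. Uqcrc1, a complex III core subunit gene, was at 3928, 4009.9, 4853 and 4829 in the wild types and 5142, 5289, 5102 and 5791 in the mutants, with no overlap, and its difference was 0.28 ± 0.10 over all 8 arrays and 0.14 without wild types 1 and 2. Cox6a1, of complex IV, was 0.03 ± 0.07 over all 8 arrays and -0.02 without wild types 1 and 2. Of 20 genes of the citric acid cycle and pyruvate entry, 16 were higher, with a median of 0.12. At an unadjusted p under 0.05, 8 were higher and 1 lower, against 13.3% and 12.2% of all genes. With wild types 1 and 2 left out the unadjusted count was 3 higher and 0 lower. Mdh2, the mitochondrial malate dehydrogenase gene, was 0.46 ± 0.12 over all 8 arrays and 0.35 without wild types 1 and 2, and Aco1 0.35 ± 0.10 over all 8 arrays and 0.37 without wild types 1 and 2. Idh1, the cytosolic isocitrate dehydrogenase gene, was on the lower side at -0.40 ± 0.12 over all 8 arrays and -0.21 without wild types 1 and 2.

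Genes of brown and beige fat had 9 of 11 measured members higher and a median of 0.34, which was 0.14 without wild types 1 and 2. Ucp1, the uncoupling protein gene that defines brown fat, was dim at 32.1, 41.2, 59.9 and 42.3 in the wild types and 37.3, 27.3, 64.9 and 40.4 in the mutants. Its groups overlapped and it differed by -0.08 ± 0.28, or -0.32 without wild types 1 and 2 and 0.11 without mutant 2. Cidea, a lipid droplet gene of brown fat, was 0.49 ± 0.12 over all 8 arrays and 0.34 without wild types 1 and 2. Ppargc1b, a coactivator gene of mitochondrial biogenesis, was at 193, 143, 276 and 273 in the wild types and 406, 389, 404 and 751 in the mutants, with mutant 4 far above the other mutants and a difference of 1.13 ± 0.28 (limma adjusted p = 0.112). Its relative Ppargc1a was 0.99 ± 0.46 over all 8 arrays and 0.14 without wild types 1 and 2.

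Genes of the extracellular matrix were mostly lower. Of 32 measured collagen and matrix genes, 26 were lower, 19 of them at an unadjusted p under 0.05, and 13 with groups apart, against backgrounds of 45.3%, 12.2% and 7.37% of all genes. The median was -0.35, and -0.23 without wild types 1 and 2, where 25 were lower, 7 of them at an unadjusted p under 0.05. The mean log2 level of the list was 10.67, 10.63, 10.39 and 10.42 in the wild types and 10.28, 10.22, 10.25 and 10.07 in the mutants, with no overlap. Nid2, the basement membrane protein nidogen-2, was at 2095, 1727, 1632 and 1755 in the wild types and 1318, 1168, 1021 and 907 in the mutants. Its highest mutant was below its lowest wild type, by -0.72 ± 0.14 (limma adjusted p = 0.111) in the mean and -0.63 without wild types 1 and 2. Nid1 was -0.41 ± 0.08 over all 8 arrays and -0.35 without wild types 1 and 2. The fibril gene Col1a1 was at 4901, 4298, 2702 and 2769 in the wild types and 2634, 2323, 1875 and 1495 in the mutants, and Col6a1, of the collagen that surrounds adipocytes, at 21296, 18262, 15767 and 12969 in the wild types and 12919.6, 11208, 10739 and 7853 in the mutants. For both, wild types 1 and 2 were the highest arrays and wild types 3 and 4 lay just above the mutants. The differences were -0.80 ± 0.25 over all 8 arrays and -0.43 without wild types 1 and 2 for Col1a1 and -0.68 ± 0.19 over all 8 arrays and -0.44 without wild types 1 and 2 for Col6a1. Lum, the lumican gene, was -0.96 ± 0.26 over all 8 arrays and -0.54 without wild types 1 and 2, Mfap5 -0.62 ± 0.15 over all 8 arrays and -0.51 without wild types 1 and 2, Col14a1 -0.59 ± 0.17 over all 8 arrays and -0.50 without wild types 1 and 2 and the basement membrane gene Col4a1 -0.31 ± 0.09 over all 8 arrays and -0.26 without wild types 1 and 2. Dcn, the decorin gene, was the 1 member on the higher side at an unadjusted p under 0.05, at 0.20 ± 0.08, and a dimmer probe of it was at -0.066.

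Of 29 genes of matrix processing and remodelling, 24 were lower, 11 of them and 1 higher at an unadjusted p under 0.05. The shares of all genes lower and higher at that p were 12.2% and 13.3%. The median was -0.24, and -0.21 without wild types 1 and 2, where 6 were lower at an unadjusted p under 0.05. Adamts5, a protease gene for aggrecan and versican, was at 3302, 3228, 2443 and 2484 in the wild types and 1875, 1684, 1377 and 1053 in the mutants. The groups were apart, by -0.96 ± 0.19 (limma adjusted p = 0.112), and by -0.75 without those wild types. The matrix protein gene Tgfbi was -0.45 ± 0.10 over all 8 arrays and -0.36 without wild types 1 and 2, and the collagen cross-linking enzyme gene Loxl2 -0.69 ± 0.17 over all 8 arrays and -0.46 without wild types 1 and 2. The inhibitors of metalloproteinases did not move together, since Timp1 was -1.06 ± 0.28 over all 8 arrays and -0.54 without wild types 1 and 2 while Timp3 was 0.48 ± 0.13 over all 8 arrays and 0.31 without wild types 1 and 2. Mmp12, the macrophage elastase gene, was at 2751, 2005, 518 and 172 in the wild types and 319, 168, 152 and 132 in the mutants. Wild types 1 and 2 held most of its signal, and the difference was -2.21 ± 0.81 over all 8 arrays and -0.72 without wild types 1 and 2.

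Macrophage genes were lower in 23 of 24 measured members, with 14 lower at an unadjusted p under 0.05 (12.2% of all genes) and a median of -0.49. The 14 became 9 without mutant 2, 6 without wild type 1, 6 without wild type 2, 6 without mutant 4 and 3 without wild types 1 and 2. The share of all genes lower at that p fell as well, to 10.1%, 7.91%, 8.01%, 8.42% and 4.35% in the same order. The mean log2 level of the list was 10.07, 9.88, 9.27 and 9.19 in the wild types and 9.15, 9.08, 8.99 and 8.87 in the mutants, highest in wild types 1 and 2. Without those arrays the median was -0.20, with 21 of 24 lower. Gpnmb, a gene of lipid-laden macrophages, was at 7468, 6572, 1845 and 576 in the wild types and 1052, 826, 669 and 482 in the mutants, and Trem2, their lipid receptor gene, at 1445, 1217, 441 and 254 in the wild types and 332, 245, 266 and 187 in the mutants. Wild types 1 and 2 exceeded all other arrays several-fold, and wild type 4 lay within the mutants. The differences were -1.89 ± 0.76 over all 8 arrays and -0.50 without wild types 1 and 2 for Gpnmb and -1.40 ± 0.53 over all 8 arrays and -0.41 without wild types 1 and 2 for Trem2. Adgre1, the F4/80 antigen gene, was highest on the same arrays and was -0.67 ± 0.29 over all 8 arrays and -0.11 without wild types 1 and 2. Other members kept more of their size: the tetraspanin gene Cd9 was -0.72 ± 0.15 over all 8 arrays and -0.54 without wild types 1 and 2, the lysozyme gene Lyz2 -1.06 ± 0.29 over all 8 arrays and -0.59 without wild types 1 and 2 and the mannose receptor gene Mrc1 -0.55 ± 0.15 over all 8 arrays and -0.37 without wild types 1 and 2. Mrc1 was at 3476, 2873, 2403 and 2468 in the wild types and 2115, 2008, 1937 and 1549.6 in the mutants, with all mutants below all wild types.

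MHC class II genes, which present antigen on macrophages, dendritic cells and B cells, had a median of -0.62 over 6 measured members, all lower. Without wild types 1 and 2 the median was -0.03, with 3 members on each side. Cd74, the invariant chain gene, was at 14321, 14872, 7242 and 6976 in the wild types and 7185, 7951, 6596 and 6976 in the mutants, and H2-Ab1 at 6585, 6679, 3045 and 2513 in the wild types and 2844, 3352, 2524 and 2943 in the mutants. Wild types 1 and 2 were far above the other 6 arrays, among which the genotypes overlapped. Ciita, the master regulator gene of the class, was -1.01 ± 0.42 over all 8 arrays and -0.31 without wild types 1 and 2.

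Chemokine genes had a median of -0.36 over 21 measured members, and -0.02 without wild types 1 and 2. At an unadjusted p under 0.05, 9 were lower and 0 higher, and 5 were lower and 0 higher without those wild types. The shares of all genes that were lower at that p were 12.2% and 4.35%. Ccl2, the main monocyte attractant gene, was at 124, 177, 37.6 and 20.8 in the wild types and 25.0, 14.8, 17.3 and 4.50 in the mutants, and its relative Ccl7 at 747, 684, 249 and 99.99 in the wild types and 104, 71.4, 93.0 and 63.4 in the mutants. Wild types 1, 2 and 3 were above all mutants, and wild type 4 was among them. The receptor genes Cx3cr1 and Cxcr4 were -0.91 ± 0.22 over all 8 arrays and -0.52 without wild types 1 and 2 and -1.08 ± 0.32 over all 8 arrays and -0.51 without wild types 1 and 2. Acute phase genes had a median of -0.32, and -0.26 without those wild types, with 7 of 11 lower in each case. Saa3, the serum amyloid gene that fat makes in inflammation, was at 1139, 1431, 425 and 211 in the wild types and 213, 176, 140.0 and 84.5 in the mutants, with wild type 4 just below mutant 1. Orm1, which encodes an acute phase glycoprotein, was at 15284, 15284, 11699.6 and 10833 in the wild types and 8813, 9168, 7114 and 7242 in the mutants, with no overlap and a difference of -0.71 ± 0.15 (limma adjusted p = 0.112). Inflammatory cytokine genes had a median of -0.23 over 11 members, which was -0.05 without wild types 1 and 2. Il1rn, the interleukin-1 receptor antagonist gene, was at 174, 151, 52.3 and 12.99 in the wild types and 10.8, 20.8, 20.7 and 14.97 in the mutants, with wild type 4 and the mutants at or near the floor. It differed by -1.91 ± 0.68 over all 8 arrays and -0.67 without wild types 1 and 2. Interferon response genes had a median of -0.01, with Gbp2 at -0.33 ± 0.11 over all 8 arrays and -0.20 without wild types 1 and 2.

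**Figure D3:**
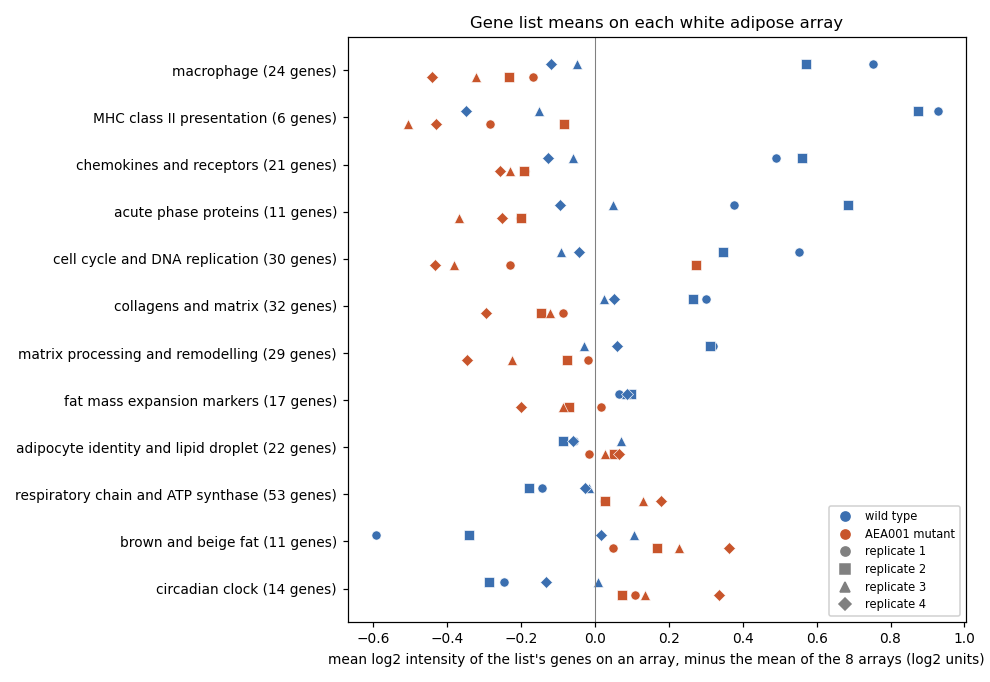
Mean log2 intensity of each gene list on each white adipose array, minus the mean of the 8 arrays, coloured by genotype with 1 symbol per replicate number. For macrophage, MHC class II, chemokine and acute phase genes wild types 1 and 2 lie to the right of the other 6 arrays. For collagen and matrix, fat expansion, respiratory chain and clock genes the gap between them and wild types 3 and 4 is smaller. All 4 wild types lie on 1 side of all 4 mutants in these lists and in the macrophage, chemokine and acute phase lists. The MHC class II means overlap between the genotypes.

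Cell cycle genes were lower in 28 of 30 measured members, with a median of -0.37 and 5 lower at an unadjusted p under 0.05. Over all genes these shares were 45.3% and 12.2%. The unadjusted count of the list was 15 lower without mutant 2, where 10.1% of all genes were. It was 0 lower and 2 higher without wild types 1 and 2, against 4.35% and 4.38% of all genes. Without wild types 1 and 2 the median was -0.13, with 23 lower. The mean log2 level was 6.88, 6.68, 6.24 and 6.29 in the wild types and 6.10, 6.60, 5.95 and 5.89 in the mutants, and mutant 2, the array with marrow transcripts, was the highest mutant. Top2a, a topoisomerase gene of dividing cells, was at 158, 100.9, 67.2 and 109 in the wild types and 61.1, 89.1, 36.8 and 30.5 in the mutants, and Cdk1, the mitotic kinase gene, at 147, 96.4, 59.5 and 60.9 in the wild types and 47.9, 59.4, 41.4 and 25.4 in the mutants. The Top2a groups overlapped at mutant 2, and the differences were -1.06 ± 0.37 over all 8 arrays and -0.79 without wild types 1 and 2 for Top2a and -1.03 ± 0.35 over all 8 arrays and -0.54 without wild types 1 and 2 for Cdk1. Lysosomal genes were lower in 24 of 26 with a median of -0.14, which was -0.01 without wild types 1 and 2. Cathepsin K (Ctsk) was -1.004 ± 0.30 over all 8 arrays and -0.44 without wild types 1 and 2.

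**Figure D4:**
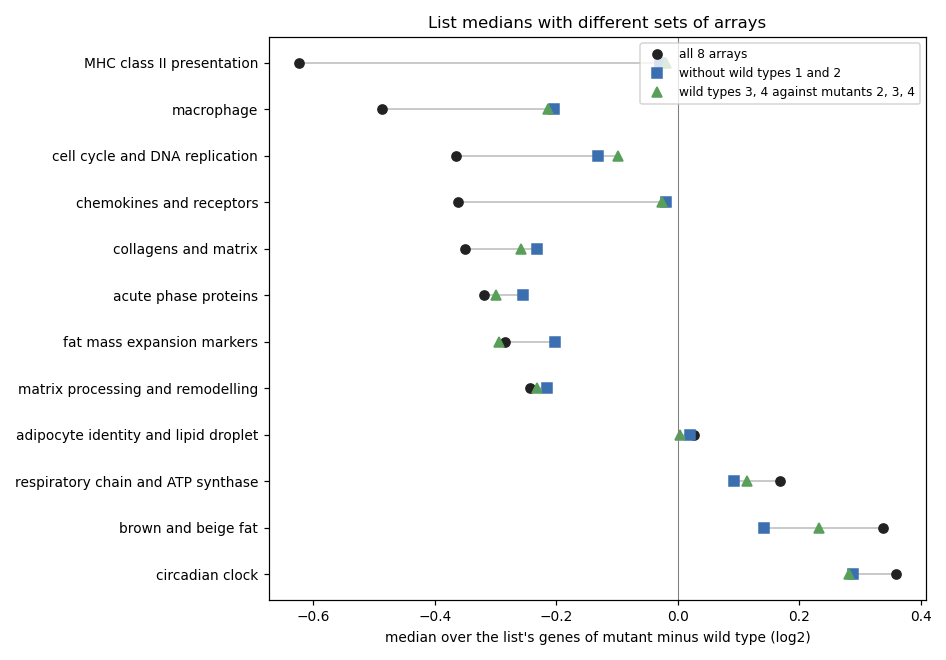
Median over each list's genes of the mutant minus wild type difference (log2) with all 8 arrays, without wild types 1 and 2, and with wild types 3 and 4 against mutants 2, 3 and 4. The MHC class II and chemokine medians move to near 0 in both smaller sets, and the matrix, fat expansion, acute phase and clock medians stay nearer to their values over all 8 arrays.

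Genes of the circadian clock were mostly on the higher side. Of 14 measured, 10 were higher, with 7 higher and 1 lower at an unadjusted p under 0.05. Over all genes these shares were 54.7%, 13.3% and 12.2%. The list median was 0.36 over all arrays and 0.29 without wild types 1 and 2. The unadjusted count was then 2 higher and 0 lower. Dbp, a clock output transcription factor gene, was at 371, 392, 994 and 752 in the wild types and 1202, 1494, 1258 and 2323 in the mutants. Wild types 1 and 2 were the lowest and mutant 4 the highest, and the difference was 1.40 ± 0.35 (limma adjusted p = 0.112), or 0.81 without wild types 1 and 2. Per1, a core repressor gene, was at 376, 402, 455 and 553 in the wild types and 869, 765, 598 and 893 in the mutants, with all mutants above all wild types by 0.81 ± 0.17 (limma adjusted p = 0.112), or 0.62 without those arrays. The repressor genes Nr1d1, Nr1d2, Per2 and Per3 were at 0.71 ± 0.20, 0.60 ± 0.20, 0.52 ± 0.20 and 0.71 ± 0.24, and the output gene Tef at 0.72 ± 0.25, each with overlapping groups. These 5 differences were 0.42, 0.27, 0.31, 0.36 and 0.35 without wild types 1 and 2. Nfil3, whose product opposes Dbp at shared sites, was -0.63 ± 0.25 over all 8 arrays and -0.19 without wild types 1 and 2. Arntl, the activator BMAL1, was at 144, 149.6, 97.3 and 56.7 in the wild types and 76.9, 65.8, 106 and 63.5 in the mutants, and Clock, its partner, at 1769, 1994, 2081 and 2010.8 in the wild types and 1809, 1721, 1992 and 2101 in the mutants. Both overlapped between the groups, at -0.45 ± 0.32 and -0.05 ± 0.10, and Arntl was 0.039 without wild types 1 and 2. Since the hour of dissection is not given, its part in these values was not tested.

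**Figure D5:**
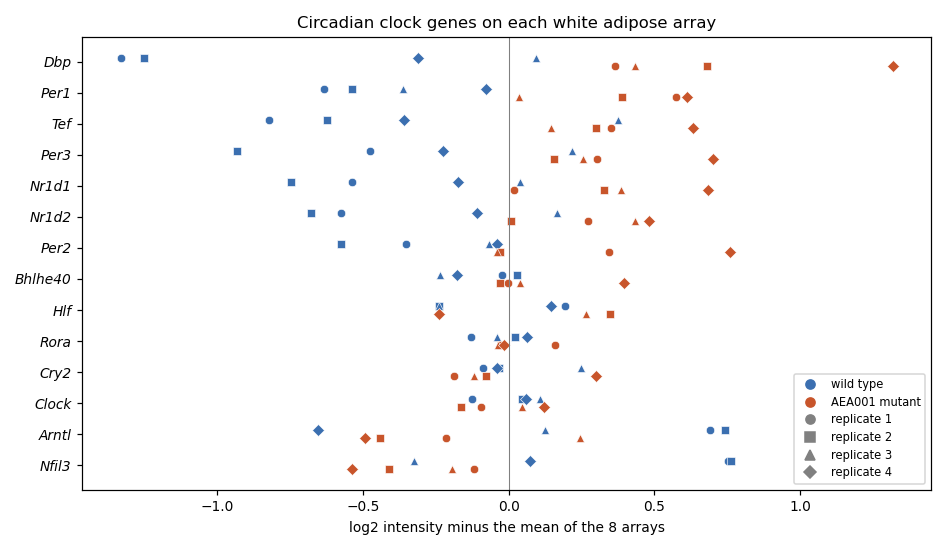
Log2 intensity of the 14 measured circadian clock genes on each white adipose array, minus the gene's mean over the 8 arrays, ordered by the genotype difference. Dbp and Per1 separate the genotypes, with wild types 1 and 2 lowest, and Arntl and Nfil3 are highest in wild types 1 and 2.

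The dimer of BMAL1 and CLOCK binds the E-box CACGTG, so the promoters of the clock genes were searched for it, and it reads the same on both strands. Windows ran from 250 bases before to 50 after the start, from RefSeq on build GRCm38.p6. It was in 2 of the 12 matched clock genes and in 8.09% of all 27025 genes in the table. The windows that hold it were 1 of Per1 and 2 of Tef, which has more than 1 start in the table. Per1 at chr11:69098699-69098998 on the plus strand and Tef at chr15:81802423-81802722 and chr15:81811164-81811463 on the plus strand are shown because both genes were among those on the higher side, with the E-box in capitals. The window of Dbp held none, which says only that these letters are not in this window.
Per1: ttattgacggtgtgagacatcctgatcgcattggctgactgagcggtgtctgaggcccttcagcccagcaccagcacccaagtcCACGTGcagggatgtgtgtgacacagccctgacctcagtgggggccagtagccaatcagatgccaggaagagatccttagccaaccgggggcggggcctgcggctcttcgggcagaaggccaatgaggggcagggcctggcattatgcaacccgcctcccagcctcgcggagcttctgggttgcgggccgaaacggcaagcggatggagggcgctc
Tef, start at the lower coordinate: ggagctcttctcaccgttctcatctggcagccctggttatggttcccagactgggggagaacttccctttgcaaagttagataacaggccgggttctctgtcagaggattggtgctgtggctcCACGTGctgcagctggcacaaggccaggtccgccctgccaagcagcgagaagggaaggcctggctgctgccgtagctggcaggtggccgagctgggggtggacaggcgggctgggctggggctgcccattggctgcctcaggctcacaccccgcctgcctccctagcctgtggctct
Tef, start at the higher coordinate: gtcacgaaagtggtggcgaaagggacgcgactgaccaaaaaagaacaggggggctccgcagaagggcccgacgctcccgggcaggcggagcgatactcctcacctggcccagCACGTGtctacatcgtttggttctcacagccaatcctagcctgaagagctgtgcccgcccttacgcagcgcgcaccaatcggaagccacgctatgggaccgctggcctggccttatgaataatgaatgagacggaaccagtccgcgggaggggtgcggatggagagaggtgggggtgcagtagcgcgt

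Of 9 other genes of the endothelin pathway, 5 passed the filter, and Edn2, Edn3, Kel and Ecel1 did not. Edn1, the endothelin-1 gene, was at 304, 393, 504 and 396 in the wild types and 509, 538, 433 and 466 in the mutants, overlapping between the groups at 0.30 ± 0.15 (limma adjusted p = 0.244). The difference was 0.12 without wild types 1 and 2 and 0.18 to 0.42 with single arrays left out. Ednrb, the type B receptor gene, was at 3151, 3579, 3433 and 3347 in the wild types and 3472, 3573, 3457 and 3163 in the mutants, a difference of 0.02 ± 0.08. The converting enzyme genes Ece1 and Ece2 were at -0.12 ± 0.09 and -0.15 ± 0.19, and Ece2 was 0.0026 without wild types 1 and 2. These are the brightest probes, and the direction depended on the probe for Ednrb, with another at -0.71, and for Ece1, with another at 0.39. Averaging the probes gave -0.21 for Ednrb and 0.13 for Ece1. Mme, which encodes neprilysin, a peptidase that degrades endothelin and natriuretic peptides, was at 993, 860.3, 707 and 659.8 in the wild types and 549.7, 452, 546 and 496 in the mutants. All mutants were below all wild types, by -0.64 ± 0.14 (limma adjusted p = 0.112), or -0.42 without wild types 1 and 2.

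Vessel genes had a median of 0.02 over 23 measured members and smooth muscle and pericyte genes 0.05 over 15. Gpihbp1, which carries lipoprotein lipase to the capillary wall, was 0.51 ± 0.13 over all 8 arrays and 0.29 without wild types 1 and 2. Lyve1, a gene of lymphatic vessels and some macrophages, was at 465, 502, 439.5 and 509 in the wild types and 379, 354, 366 and 264 in the mutants, with all mutants lower by -0.50 ± 0.13, or -0.49 without wild types 1 and 2. The endothelial genes Cd93 and Cdh5 were at -0.39 ± 0.11 and -0.27 ± 0.09. Genes of preadipocytes and fibroblasts had a median of -0.003 over 21. Zfp423, a transcription factor gene of committed preadipocytes, was at 594, 602, 679 and 571 in the wild types and 456, 528, 454 and 418 in the mutants, with a difference of -0.40 ± 0.10 that was -0.43 without wild types 1 and 2. Wnt5a, a ligand gene of the noncanonical Wnt pathway, had nearly equal wild types at 424, 424, 424 and 425 and mutants at 361, 297, 328 and 289, a difference of -0.42 ± 0.09 (limma adjusted p = 0.112).

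Genes of the hypoxia response had a median of -0.10 over 14, with 5 lower and 0 higher at an unadjusted p under 0.05. The shares over all genes were 12.2% and 13.3%. Epas1, which encodes hypoxia-inducible factor 2-alpha, was at 975, 954, 894 and 886 in the wild types and 735, 659.6, 671 and 567 in the mutants, and Hilpda, a lipid droplet protein gene induced by hypoxia, at 2222, 3119, 2638 and 1798 in the wild types and 1564, 1064, 1611 and 1257 in the mutants. Both had all mutants below all wild types, with -0.50 ± 0.10 over all 8 arrays and -0.44 without wild types 1 and 2 for Epas1 and -0.82 ± 0.20 over all 8 arrays and -0.68 without wild types 1 and 2 for Hilpda. Hif1a was -0.67 ± 0.16 over all 8 arrays and -0.39 without wild types 1 and 2 and Egln1, the oxygen-sensing hydroxylase gene, -0.46 ± 0.13 over all 8 arrays and -0.51 without wild types 1 and 2.

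The lists of skeletal muscle, granulocytes and red-cell precursors had medians on the higher side, which were smaller without mutant 2. Of 19, 22 and 13 members with a probe, 11, 8 and 7 passed the filter. Their medians were 1.247, 0.54 and 0.48, and 0.39, 0.38 and 0.15 without mutant 2. Dim members could pass through the mutants, as S100a9 did with all mutants but only wild type 2 above 16. These medians are thus not independent of the filter. Hbb-bt, of the red-cell list, was at 84.7, 111, 73.6 and 75.2 in the wild types and 179, 184, 134 and 126 in the mutants. Elane, of the granulocyte list, was at 40.9, 47.4, 45.8 and 44.6 in the wild types and 66.7, 311, 93.7 and 86.5 in the mutants. The groups did not overlap for either gene, and without mutant 2 they differed by 0.77 ± 0.19 and 0.87 ± 0.14. Without that array, 2 of the 8 granulocyte and 2 of the 7 red-cell genes were lower. S100a9, a granulocyte gene, was at -0.991, 20.2, 10.8 and 8.25 in the wild types and 23.2, 3414, 114 and 83.4 in the mutants, highest on mutant 2 and low on all wild types. Its partner S100a8 was at 1485, 1468, 692 and 435 in the wild types and 428, 9828, 614 and 424 in the mutants, with wild types 1 and 2 above every mutant but mutant 2. Its difference was 0.18 ± 0.99, and -0.90 without mutant 2. Mesothelial genes had all 11 members higher, with a median of 0.42 over all arrays and 0.04 without wild types 1 and 2. Msln, the mesothelin gene, was at 132, 165, 191 and 255 in the wild types and 240.4, 218, 351 and 261 in the mutants, lowest in wild types 1 and 2 and overlapping otherwise. Leaving out mutant 2 changed the medians of the macrophage, matrix, respiratory chain and clock lists to -0.56, -0.36, 0.19 and 0.43. The unadjusted counts over all genes were then 1116 higher (11.3%) and 996 lower (10.1%), with 0 probes past the adjusted threshold.

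The genotype difference in fat was set against that in femur of the same animals in the joint fit, with animals as random blocks. The difference between tissues passed for 929 of 12882 probes (7.21%). The count was 0 to 2670 with single animals left out, and 0 without wild type 1, wild type 2, mutant 2 or mutant 3. Among the genes named here, Depp1 was higher in fat by 0.84 ± 0.22 more than in femur (limma adjusted p = 0.0392), where it differed by 0.11. Orm1 was lower in fat and at 0.78 in femur, with -1.49 ± 0.28 for fat minus femur (limma adjusted p = 0.0245).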

How the data were processed

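RNA of white adipose tissue from 4 wild-type and 4 AEA001 mutant mice had been hybridised to Illumina bead arrays. The deposited values were the authors' normalized intensity of each of 25697 probes. The submitters' processing notes name GenomeStudio 2011.1. Neither the background correction nor the type of normalization is given in the sources used here. When each array was sorted, the 16 arrays were at most 0.797 apart at any rank, as after quantile normalization over both tissues, so a difference in total RNA is not visible. A non-normalized table was left out because the names of its 16 signal columns match no label of a sample.

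The deposited intensities were floored at 16 and taken to log2. Differences of dim genes are thus understated, and their spread within a group can be as well. Of the probes, 23978 had 1 gene symbol, 0 had several and 1719 had none, and 23962 were matched by gene ID to current symbols in the RefSeq table of GRCm38.p6. Of 2613 genes with several kept probes, 63.0% had 1 sign over all probes. Groups were compared with limma 3.58.1 in R 4.3.3 (two-sided, Benjamini-Hochberg over all 14342 kept probes). The fit was tested on simulated data. The difference between tissues used duplicateCorrelation over all arrays of both tissues (consensus correlation -0.0884).

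Named genes were those called, 15 of smallest p in each direction, the endothelin pathway, up to 2 of smallest p from each of 46 lists and the brightest adipocyte genes, 121 in all, and 68 more were named after their values were seen. The members and lists were chosen with earlier results of these data known. Lists are described by counts and medians, with no test. Alternatives covered the filter, floor, scale, renormalization, variance model, fit of all 16 arrays, replicate block, threshold, probes per gene and arrays left out. The number of arrays limits the precision. Replicates carry animal identifiers of their own in the labels, except for the shared one of wild type 3 and mutant 4.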

Additional observations from a re-analysis of the deposited data

Results flagged for a closer look

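By Dixon's test at the 95% level, 20 named genes or list means had 1 array of a group of 4 far from the other 3, on the log2 scale. Chance alone marks about 1 in 20 groups. There were 189 named genes and 46 lists, each with a wild-type and a mutant group, so this many flags can arise by chance. For wild type 1 these were Sparc at 14.55 (others 14.72 to 14.75), Cdh5 at 9.68 (others 9.43 to 9.46) and the glycolysis and glucose uptake list mean at 10.11 (others 10.22 to 10.24). For wild type 2 these were S100a9 at 4.33 (others 4.00 to 4.00) and Cidec at 14.48 (others 14.55 to 14.56). For wild type 3 these were Tnp1 at 4.41 (others 4.00 to 4.05), Mfap5 at 10.89 (others 11.31 to 11.34) and Fasn at 8.02 (others 7.75 to 7.78). For wild type 4 these were Sag at 4.05 (others 4.00 to 4.00), Ece2 at 7.005 (others 7.504 to 7.56), Angptl4 at 14.07 (others 14.24 to 14.26) and Dcn at 14.09 (others 13.85 to 13.89). For mutant 2 these were Bmp6 at 4.22 (others 4.00 to 4.00), S100a8 at 13.26 (others 8.73 to 9.26), Ndufs7 at 12.29 (others 12.45 to 12.48), the erythroid list mean at 9.49 (others 8.26 to 8.43) and the B cell list mean at 5.61 (others 5.35 to 5.38). For mutant 3 these were Sdcbp2 at 8.20 (others 8.08 to 8.08) and Dgke at 4.22 (others 4.00 to 4.02). For mutant 4 these were Ppargc1b at 9.55 (others 8.61 to 8.66). Bmp6, Dgke, S100a9, Sag and Tnp1 lay at or near the floor of 4 on the other arrays.

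The genotype difference differed between fat and femur in the limma fit of all 16 arrays for 41 of the 189 named genes. Some of the 189 did not pass the filter in femur and were not compared. Over all probes kept in both tissues, 929 of 12882 (7.21%) passed. That fit called 0 probes when any of wild type 1, wild type 2, mutant 2 or mutant 3 was left out. The values are the signed genotype difference in fat minus that in femur, on the log2 scale. Genes with a positive value were Prf1 (1.67), Ppargc1b (1.39), Sdcbp2 (1.19), Coq8b (1.18), Irs2 (1.16), Ngfr (1.08), Rufy3 (0.99), Hbb-bt (0.94), Alas2 (0.85), Depp1 (0.84), Eif3k (0.84), Abi3 (0.82), Timm44 (0.69), Asns (0.63), Ltbp1 (0.60), Tmem150a (0.60), Timp3 (0.58) and Tprn (0.55). Genes with a negative value, more to the lower side in fat than in femur, were Mex3c (-2.19), Ccl8 (-1.52), Orm1 (-1.49), Lyz2 (-1.49), Krit1 (-1.44), Hif1a (-1.10), Igfbp3 (-1.07), Loxl2 (-1.04), C1qc (-1.01), Mrc1 (-0.96), Cd9 (-0.96), Angptl1 (-0.95), Lyve1 (-0.90), Acadl (-0.88), Mfap5 (-0.88), Ncapg2 (-0.85), Hilpda (-0.78), Tgfbi (-0.76), Tiam1 (-0.74), Idh1 (-0.71), Bmp3 (-0.67), Itga1 (-0.66) and Rbm28 (-0.62). The genes were named for small p in fat or after their values were seen, so this count is not an independent measure.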

How the results depend on the processing

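The 2 called probes stayed called after cyclic loess, quantile and median renormalization, with array weights, in the joint fit with femur and at an adjusted p of 0.10. The count of called fat probes was 0 with no filter on dim probes, with only probes above 32 on all arrays, with a floor of 8, with an offset of 50 and with the probes of a gene averaged. It was also 0 without the 2 arrays of 1 identifier, among the 5 animals with like identifiers and without wild types 1 and 2, and 0 to 3 with single arrays left out. It was 11 with a floor of 32, 7 with a variance trend and robust eBayes and 3937 at an adjusted p of 0.20. With fat and femur in a joint fit it was 1181. Chosen after seeing the data, that fit without single fat arrays gave 119, 104, 2164 and 2314 for wild types 1 to 4, 1005, 632, 285 and 135 for mutants 1 to 4, and 17 without wild types 1 and 2. With the replicate number as a block the count was 0. These numbers are not taken as pairs, since the labels do not say that they mark a shared litter or day. The deviations of same-numbered arrays correlated at -0.0554 to 0.331, and those of arrays with unlike numbers at -0.342 to 0.273. Whether the numbers mark pairs was not tested. The difference between tissues was called for 929 probes with the animal as a block, 1370 without it and 0 to 2670 with single animals left out. The log2 difference took the other sign, with the value in parentheses, with a floor of 8 for Tnp1 (0.064), with an offset of 50 for Tnp1 (0.012). It did so without the 2 arrays of 1 identifier for Tnp1 (0.030) and Ucp1 (0.079) and among the 5 animals with like identifiers for Prm1 (-0.50), Lpl (-0.027), Plin4 (0.025), Cd74 (0.0091), H2-Ab1 (0.078), Arntl (0.036), Upk3b (-0.044), Cox6a1 (-0.0048) and Fabp4 (-0.00073). It did so without wild types 1 and 2 for Ece2 (0.0026), Hdc (-0.0020), Prm1 (-0.88), Lpl (-0.028), Plin4 (0.024), Cidec (-0.0024), Cd74 (0.011), H2-Ab1 (0.069), Arntl (0.039), Upk3b (-0.030), Cox6a1 (-0.019) and Fabp4 (-0.062) and with the probes of a gene averaged for Ednrb (-0.21) and Ece1 (0.13). With single arrays left out, both signs occurred for Ednrb (-0.016 to 0.053), Prm1 (-0.30 to 0.86), Lpl (-0.013 to 0.028), Plin4 (-0.020 to 0.013), Cidec (-0.0056 to 0.024), Tnp1 (-0.086 to 0.050), Ucp1 (-0.31 to 0.11), S100a8 (-0.90 to 0.61), Car2 (-0.13 to 0.78) and Clock (-0.094 to 0.0023). The other named genes kept their direction under every alternative that gave them a value. With a floor of 32 Bmp6 and Tnp1 lay at the floor on all arrays and gave none. That floor left little of the difference of Dgke (-0.0097), Ncapg2 (-0.048), Olfr703 (0.0008) and Sag (0.0032). Arrays are few, and values near the floor give only bounds. The cause of these changes was not tested.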

Other observations

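Gene lists not described above were mostly near the median of all genes, and no member passed the adjusted threshold, so the following are values with unadjusted counts. Of 38 cytoplasmic ribosomal protein genes 25 were higher, 7 of them and 0 lower at an unadjusted p under 0.05, with a median of 0.07. Over all genes the shares were 54.7%, 13.3% and 12.2%. Rps25, of the small subunit, was 0.44 ± 0.09 over all 8 arrays and 0.41 without wild types 1 and 2. Of 35 genes of the mitochondrial ribosome and protein import 24 were higher, with a median of 0.07, and the import motor gene Timm44 was 0.45 ± 0.09 over all 8 arrays and 0.40 without wild types 1 and 2. The proteasome median was 0.07, with Psmb6 at 0.23 ± 0.07 and Psmc3 at 0.23 ± 0.08. Glycolysis had a median of 0.07, where the phosphofructokinase gene Pfkl was 0.26 ± 0.10 over all 8 arrays and 0.12 without wild types 1 and 2. The muscle-type enolase gene Eno3, also on the skeletal muscle list, was highest on mutant 2. It was 0.84 ± 0.27 over all 8 arrays and 0.55 without wild types 1 and 2, and 0.59 without mutant 2.

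Insulin signalling genes had a median of 0.06. Irs2, an insulin receptor substrate gene, was at 576, 681, 962 and 835 in the wild types and 941, 1181, 1314 and 1633 in the mutants, a difference of 0.73 ± 0.21 that was 0.47 without wild types 1 and 2, and the IGF binding protein gene Igfbp3 was -0.67 ± 0.19 over all 8 arrays and -0.57 without wild types 1 and 2. Cholesterol genes had 11 of 15 members lower and a median of -0.16, which was -0.07 without wild types 1 and 2. The synthesis enzyme genes Dhcr7 and Sqle were -0.82 ± 0.20 and -0.43 ± 0.14, and -0.50 and -0.39 without those arrays. Genes of the endoplasmic reticulum stress and amino acid response had a median of -0.17, but Asns, the asparagine synthetase gene, and Chac1, a glutathione-degrading enzyme gene, were 0.52 ± 0.12 and 0.62 ± 0.14. Immediate early genes had a median of -0.17, with Fos at -1.19 ± 0.35 and Klf4 at 0.54 ± 0.14.

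Of 19 heat shock and chaperone genes 15 were lower, with a median of -0.09 and 0 at an unadjusted p under 0.05. Id1, a BMP target gene, was 0.81 ± 0.23 over all 8 arrays and 0.39 without wild types 1 and 2. The medians were 0.04 for TGF-beta and BMP signalling, -0.08 for Wnt signalling and 0.03 for glucocorticoid targets. B cell genes had a median of -0.40 that was 0.000 without wild types 1 and 2, and T cell and cytotoxic genes -0.06, with the perforin gene Prf1 at 0.91 ± 0.29 over all 8 arrays and 0.48 without wild types 1 and 2. Mast cell and eosinophil genes were at -0.01, bone genes at 0.06, and nerve and Schwann cell genes at 0.08, with the neurotrophin receptor gene Ngfr at 0.69 ± 0.13. Of the epididymis and testis genes 3 were measured.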
